A study of Mus musculus with 27 samples.

Results

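The mitochondrial genome of the mouse supplied 37 of the 55367 gene symbols in the count tables, and these genes were followed in 27 libraries of polyadenylated RNA. They were chosen by name alone, as every symbol that begins with mt-, although earlier results of these data were known. The 37 genes are 13 protein genes, 2 ribosomal RNA genes and 22 transfer RNA genes. The ganglion experiment had 15 bulk libraries from L4-L5 dorsal root ganglia, where sensory neurons that project into the sciatic nerve have their somata. Its 5 groups of 3 were wild type after sham surgery (titled intact), wild type 3 days after injury of the sciatic nerve, Ptpn2 knockout with sham surgery, Ptpn2 knockout 3 days after injury, and injured wild type given RU521, an inhibitor of the DNA sensor cGAS, into the nerve. The retinal experiment had 12 libraries of retinal ganglion cells, with the number of cells per library not given, all 3 days after optic nerve injury, in 4 groups of 3: wild type and Ptpn2 knockout, each given PBS or interferon gamma (IFNγ) into the eye. All retinal groups came from floxed Ptpn2 mice given a viral vector 2 weeks earlier, with Cre in the knockout and GFP in the control. The Cre driver of the ganglion knockout, the ages and sexes, and whether replicates are separate animals are not stated in these sources. The p-values therefore measure the spread between these libraries, which may be technical. Counts over all exons of Ptpn2 overlapped between genotypes in sham and in injured ganglia. They stood at 11.9 to 18.9 CPM (counts scaled to equal library size) in wild-type sham, 16.3 to 19.5 in injured wild type and 14.1 to 18.4 with RU521, against 10.3 to 15.9 in sham and 18.01 to 25.5 in injured libraries labelled knockout. In retinal libraries given PBS they stood at 3.35 to 8.31 CPM in wild type and, without overlap, at 9.07 to 12.1 CPM in those labelled knockout, and with IFNγ at 0 to 13.7 and 0 to 27.4 CPM. Which exons were deleted is not stated and exons outside that part are counted too, so these counts do not check the deletion. Below, knockout means the libraries labelled so, and every direction by genotype rests on that label. The series' title names the effect of Ptpn2 loss and IFNγ on axon regeneration as its question.

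Mitochondria carry a small circular genome of their own. Its protein genes encode core subunits of the respiratory chain and of ATP synthase, while most subunits of these machines come from nuclear genes. Both strands are copied into long RNAs, transfer RNAs lie between most of the other genes and are cut out, and most messenger RNAs then receive a poly(A) tail. In neurons the chain supplies ATP to long axons. Pieces of the mitochondrial genome have also been copied into nuclear chromosomes in evolution, and reads from a gene and a near-identical copy cannot be told apart by sequence.

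Such copies matter for the levels below, so they are shown here. Chromosome 1 of GRCm38 holds 7 annotated pseudogenes of mitochondrial genes on its minus strand, at chr1:24611535-24616197. The copies of mt-Nd4 (876 bases), mt-Nd4l (294), mt-Co3 (783), mt-Atp6 (678) and mt-Co2 (681) were identical to the mitochondrial gene over all their bases. The copy of mt-Co1 aligned to 493 positions with 4 substitutions and 2 gaps, an identity of 98.8%. The copy of mt-Nd3, a subunit of complex I, differed from it by 1 substitution, T3C counted from 1 at the 5′ end of the gene, an identity of 99.7%. Capitals mark that position in the first 200 of the 345 bases of the copy (GENCODE M21 transcripts on GRCm38, with the gene at chrMT:9459-9806 on the plus strand).
mt-Nd3: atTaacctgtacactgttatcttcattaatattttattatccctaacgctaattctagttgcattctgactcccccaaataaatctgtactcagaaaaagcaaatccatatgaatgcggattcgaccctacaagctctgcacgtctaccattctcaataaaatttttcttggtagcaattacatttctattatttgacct
Gm28438: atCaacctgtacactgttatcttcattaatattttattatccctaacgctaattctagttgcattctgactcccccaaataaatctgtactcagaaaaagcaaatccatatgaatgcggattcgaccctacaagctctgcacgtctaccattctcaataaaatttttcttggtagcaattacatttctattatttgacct

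The pair for mt-Nd4l, another complex I subunit (chrMT:9877-10173), shows a complete match. Capitals mark the only 3 bases of the gene that its annotated copy lacks, the stop codon.
mt-Nd4l: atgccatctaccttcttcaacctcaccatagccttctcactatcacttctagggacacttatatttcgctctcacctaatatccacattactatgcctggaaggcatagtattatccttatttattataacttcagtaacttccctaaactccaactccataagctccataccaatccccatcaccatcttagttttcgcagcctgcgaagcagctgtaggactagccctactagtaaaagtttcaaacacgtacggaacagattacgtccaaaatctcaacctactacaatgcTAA
Gm10222: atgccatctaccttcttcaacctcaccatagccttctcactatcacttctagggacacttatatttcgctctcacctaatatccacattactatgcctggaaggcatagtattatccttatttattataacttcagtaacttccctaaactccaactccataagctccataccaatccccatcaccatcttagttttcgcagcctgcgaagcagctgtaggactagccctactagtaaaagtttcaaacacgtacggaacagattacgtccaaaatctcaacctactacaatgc

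Levels of the protein genes spanned several orders of magnitude in both experiments. Levels are compared between genes as RPKM, counts scaled by gene length and by library size. In ganglia the median over 15 libraries was 32710 RPKM for mt-Cytb, the only mitochondrial subunit of complex III, 26222 for mt-Nd1 of complex I and 20090 for mt-Co1, the catalytic subunit of complex IV. It was 6638 RPKM for mt-Nd4, 3522 for mt-Nd5, 2549 for mt-Nd2 and 1474 for mt-Nd6, all of complex I. The lowest were mt-Nd3 at 260 RPKM, mt-Atp6 at 9.83, mt-Nd4l at 8.5, mt-Co3 at 6.23, mt-Co2 at 2.91 and mt-Atp8 at 1.60. mt-Co2 and mt-Co3 encode core subunits of complex IV beside mt-Co1, and mt-Atp6 and mt-Atp8 encode the 2 mitochondrial subunits of ATP synthase. In retinal cells the median RPKM was 3762 for mt-Co1, 3233 for mt-Nd1, 2722 for mt-Cytb and 1143 for mt-Nd5. It was 334 for mt-Nd4, 318 for mt-Nd2, 264 for mt-Nd6 and 233 for mt-Nd3, which stood close together, and 11.8 for mt-Co2, 16.6 for mt-Co3, 17.9 for mt-Atp6, 19.9 for mt-Nd4l and 20.7 for mt-Atp8.

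The 5 genes with nearly all their sequence in a nuclear copy were among the 6 lowest protein genes in both experiments, together with mt-Atp8, which has no annotated copy. mt-Nd4 and mt-Co1, which also have copies, had higher levels in ganglia. Each gene was read in windows of 100 bases, the ganglion read length, moved by 1 base, and a window was counted as shared when a nuclear GENCODE transcript holds the same 100 bases. The shared part was 99.9% of windows for mt-Co3, 99.5% for mt-Co2 and for mt-Atp6, 98.5% for mt-Nd4l and 97.6% for mt-Nd3. It was 60.8% for mt-Nd4, 30.8% for mt-Co1, 3.19% for mt-Nd2, and 0% for mt-Nd1, mt-Nd5, mt-Nd6, mt-Cytb, mt-Atp8 and both ribosomal RNA genes. mt-Atp8 lies between mt-Co2 and mt-Atp6 inside the stretch from base 6381 to base 11042 of the mitochondrial genome that the pseudogenes span (4662 bases, against 4663 bases of chromosome 1), but no annotated transcript covers its place there. It also shares 43 of its 204 bases with mt-Atp6, and the recorded ganglion counting command has no option that counts a read lying in more than 1 gene or mapped to more than 1 place. The ganglion table counted only reads with a mapping quality of 10 or more. How retinal reads were filtered is not stated there. The reads were not analysed here, so the part of mapping in these levels was not tested. The pseudogenes took few counts themselves: the medians of Gm28437, the copy of mt-Co3, were 84 counts in ganglia and 128 in retinal cells, against 79 and 189.5 for mt-Co3. Gm10925, the copy of mt-Atp6, stood higher than its gene, at 156 and 219 against 105 and 187.5. Gm10222, the copy of mt-Nd4l, stood lower, at 5 and 13 against 41 and 83. Gm13339, Gm13340 and Gm13341, outside the chromosome 1 group, share windows with mt-Nd2, mt-Co1 and mt-Co2. Their medians were 6, 104 and 53 counts in ganglia.

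**Figure D1:**
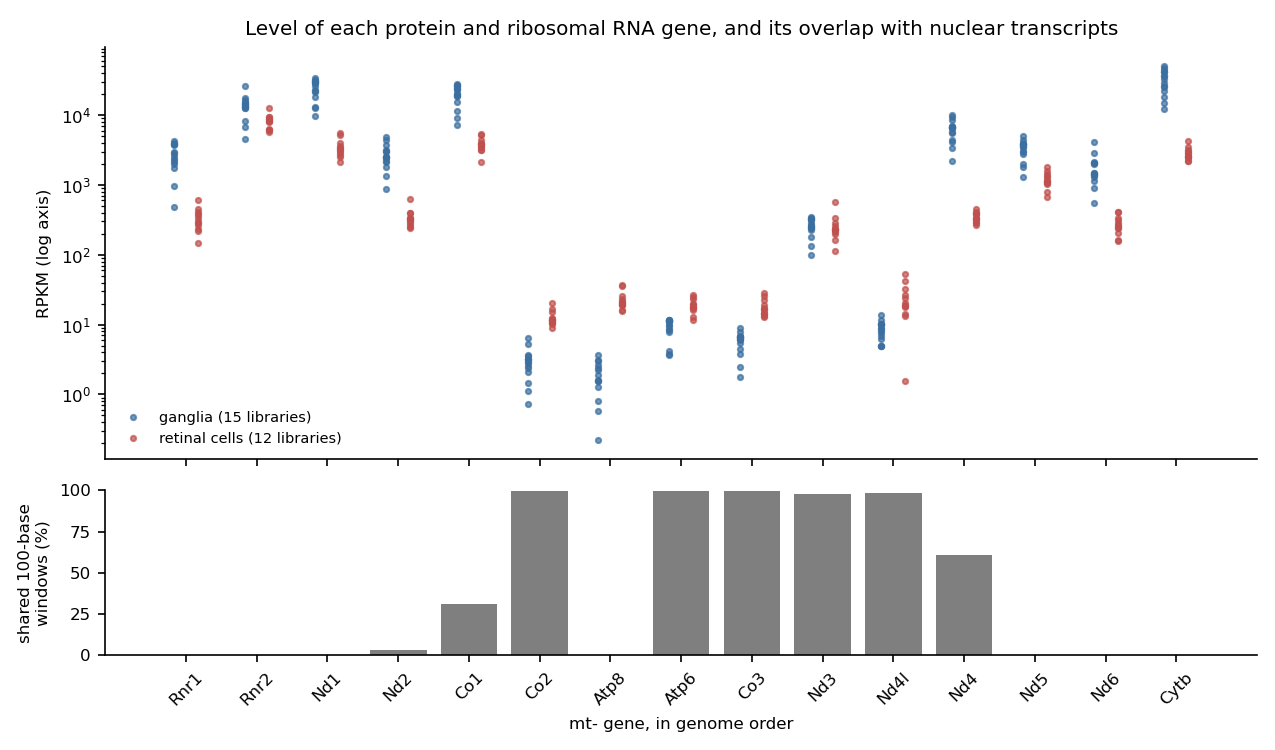
Level of each protein and ribosomal RNA gene in RPKM on a log axis, with 1 point per library (blue, 15 ganglion libraries; red, 12 retinal libraries), above the percentage of its 100-base windows found in a nuclear transcript. The 5 genes with more than 90% of windows shared have medians of 2.91 to 260 RPKM in ganglia, and 1 ganglion library with 0 counts of mt-Atp8 is not drawn.

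The counts of mt-Co2, mt-Co3, mt-Atp6, mt-Nd3, mt-Nd4l, mt-Nd4 and mt-Co1 are uncertain in all results. Reads that match gene and copy equally could be left uncounted, or be divided between gene and copy where they are counted. The counts of mt-Atp8 are uncertain too, given its overlap with mt-Atp6 and its place in the stretch that the pseudogenes span. Nuclear sequence outside annotated transcripts was not searched, and the part of either was not tested.

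mt-Rnr2, mt-Nd1, mt-Co1 and mt-Cytb held most mitochondrial counts. These 4 genes made up 79.4% to 86.2% of them in ganglion libraries and 84.2% to 90.7% in retinal libraries. mt-Rnr2, the RNA of the large mitochondrial ribosome subunit, was 12.5% to 27.3% of mitochondrial counts in ganglia and 34.2% to 54.6% in retinal cells, and the ranges did not overlap. mt-Cytb took 19.3% to 32.1% in ganglia and 6.83% to 15.1% in retinal cells. mt-Rnr1, the RNA of the small ribosome subunit, stood at a median of 2698 RPKM in ganglia and 310 RPKM in retinal cells, against 13741 and 8230 RPKM for mt-Rnr2. Tissue, kit and read length differ between both experiments (SMART-Seq v4 for ganglia, Smart-seq2 for retinal cells, per the labels) and cannot be told apart, so no test was made across them.

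Ends of 3 protein genes show how their messages depend on the poly(A) tail by which these libraries captured RNA. The genes mt-Co3, mt-Nd4 and mt-Cytb end in an incomplete stop codon, a lone T, which is completed by the tail in the mature message. The last 30 bases are shown with that T in capitals, and the other 10 protein genes end in a full codon, TAA or TAG.
mt-Co3: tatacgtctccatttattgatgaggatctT
mt-Nd4: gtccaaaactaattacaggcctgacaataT
mt-Cytb: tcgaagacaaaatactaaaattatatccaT

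Transfer RNAs, which carry amino acids to the mitochondrial ribosome, had few counts, and many of them were close to the limit of detection. All 22 together held 255 to 849 counts per ganglion library and 213 to 972 per retinal library, at most 0.0328% and 0.237% of mitochondrial counts. A level of 3 counts, 0.134 to 0.203 CPM in ganglia and 0.175 to 0.227 CPM in the retina, served as the floor, which covers counting error only. mt-Td and mt-Tk, for aspartate and lysine, had 0 counts in all 27 libraries. Both lie inside the stretch of the mitochondrial genome that the pseudogenes span, as do mt-Ts1, mt-Tg and mt-Tr. Transfer RNA genes are too short for a window of 100 bases, so sharing was not assessed for them. The part of mapping in their counts was not tested. In ganglia 13 of the 22 had counts in all 15 libraries, and in retinal cells 3 in all 12. The highest means in ganglia were 11.1 CPM for mt-Tm, 5.83 for mt-Tp and 3.75 for mt-Te, the transfer RNAs for methionine, proline and glutamate. In retinal cells they were 19.3 CPM for mt-Tp, 3.72 for mt-Tm and 2.24 for mt-Ta, for alanine. Free transfer RNAs have no poly(A) tail, and whether these counts come from them or from uncut precursor RNA was not tested. The genes are shorter than a read of either experiment, from 59 to 75 bases, as these 4 sequences show, given on the strand of the gene (plus for mt-Tm, minus for the other 3).
mt-Tp: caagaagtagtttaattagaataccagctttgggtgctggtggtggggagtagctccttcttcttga
mt-Tm: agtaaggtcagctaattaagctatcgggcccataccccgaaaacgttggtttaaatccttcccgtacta
mt-Te: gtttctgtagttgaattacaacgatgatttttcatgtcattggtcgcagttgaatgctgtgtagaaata
mt-Ta: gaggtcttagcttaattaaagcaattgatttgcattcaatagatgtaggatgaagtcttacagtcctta

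Sequencing depth was 14813365 to 22414750 counts in ganglion and 13239988 to 17122057 in retinal libraries, of which 1091822 to 3163656 and 298319 to 621895 were mitochondrial. Every listed sensory neuron marker (6 of 6) was detected in all ganglion libraries, although the series' design names nerve as the material. All 6 retinal ganglion cell markers were detected in every retinal library, summing to 1694 to 5209 CPM. The same 6 were also detected in every ganglion library, at 3421 to 8798 CPM, so this list does not set retinal cells apart from ganglia. In bulk libraries fewer cells of a type and less RNA per cell cannot be told apart.

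The mitochondrial share of counts spread more widely between wild-type sham libraries than in any other group. It was 4.87%, 15.2% and 6.52% of library counts in wild-type sham replicates 1, 2 and 3, and 13.2%, 15.7% and 14.9% in injured wild type. The knockout libraries held 12.8%, 18.3% and 18.6% after sham surgery and 11.5%, 17.1% and 16.6% after injury, and the RU521 libraries 7.83%, 15.5% and 11.3%. Replicates 1 and 3 of wild-type sham and replicate 1 of RU521 were the 3 lowest, and groups overlapped in every comparison. Retinal cells held 3.33%, 3.63% and 2.17% in wild type with PBS, 2.66%, 2.69% and 2.96% in wild type with IFNγ, 2.63%, 3.06% and 2.91% in knockout with PBS, and 3.71%, 2.41% and 2.76% in knockout with IFNγ. The protein genes alone held 4.09% to 15.8% of a ganglion library and 1.17% to 2.28% of a retinal one.

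**Figure D2:**
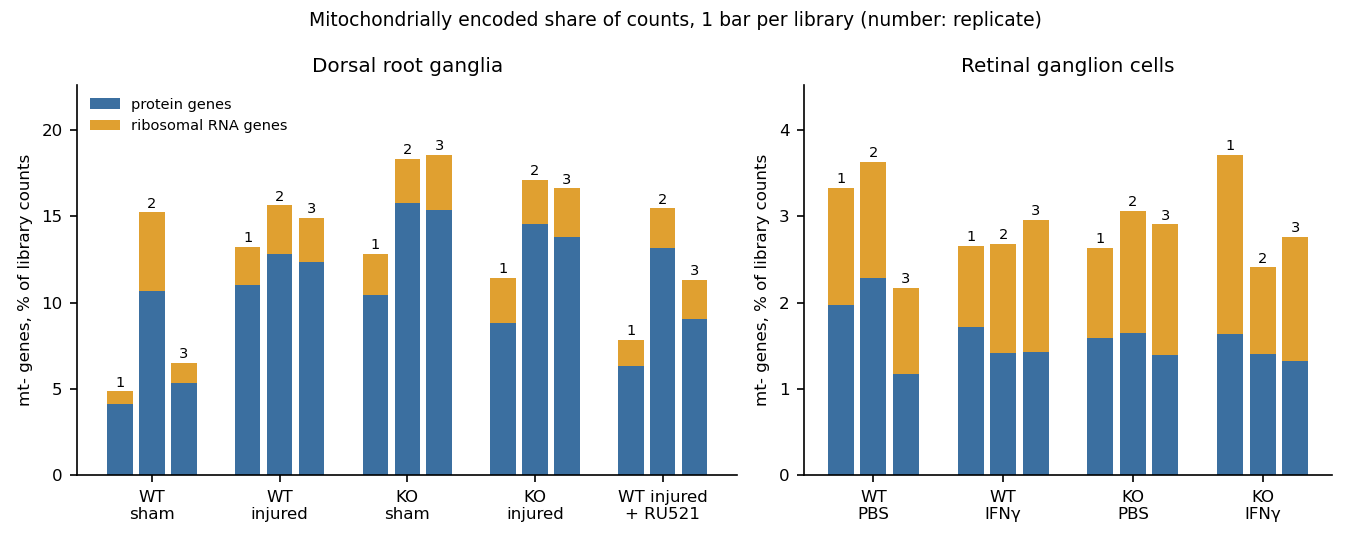
Percentage of library counts in mitochondrially encoded genes, 1 bar per library with its replicate number, divided into protein genes (blue) and ribosomal RNA genes (orange); the axes of the panels differ. Wild-type sham replicates 1 and 3 stand at 4.87% and 6.52%, below every other ganglion library, while replicate 2 stands at 15.2%.

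No difference in this share passed an exact permutation test. With 3 libraries against 3, the two-sided exact test cannot go below p = 0.1. The mean share was higher by 5.73 percentage points after injury in wild type (exact p = 0.3) and higher by 7.69 points in knockout than in wild-type sham ganglia (exact p = 0.2). Over sham and injured groups together, where p = 0.005 is the smallest value possible, the knockout was higher by 4.07 points (exact p = 0.14), and over both genotypes injured ganglia were higher by 2.11 points (exact p = 0.395). RU521 libraries were lower by a mean difference of -3.07 points (exact p = 0.3). In retinal cells the differences lay between -0.277 and 0.191 points. Adjusted over the 13 comparisons by Benjamini-Hochberg, every p was 0.975 or more.

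Other signs moved with the share in the wild-type sham libraries. Replicate 2 had 34115 detected genes against 26235 and 26802 in replicates 1 and 3. Skeletal muscle markers (5 genes, all detected) summed to 3859 CPM in replicate 2, against 15.3 and 422 CPM in replicates 1 and 3 and 10.3 to 469 CPM in the other 12 ganglion libraries. Red blood cell markers stood at 1215, 6351 and 1574 CPM in replicates 1, 2 and 3, at 10613 to 10999 CPM in injured wild type, and at 3248 to 7329 CPM in the other ganglion groups. Replicate 2 also had a different makeup of mitochondrial RNA, with 30% in both ribosomal RNAs against 14.0% to 23.1% in the other 14 ganglion libraries, and 5.88 mt-Cytb counts per mt-Nd2 count against 9.52 to 18.6. The part of muscle, blood and RNA quality in the share was not tested.

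Injury in wild-type ganglia gave higher mean levels of the abundant protein genes, short of the threshold, while both ribosomal RNAs and mt-Nd6 showed no such difference. In wild-type sham replicates 1, 2 and 3, mt-Nd1 stood at 8964, 21489 and 11649 CPM after TMM scaling (a scaling of library sizes), and in injured wild type at 24427, 28539 and 27154 CPM. Groups did not overlap, although sham replicate 2 was near the injured libraries. The fitted log2 fold change was 0.93 ± 0.33 (SE, edgeR quasi-likelihood test, Benjamini-Hochberg adjusted p = 0.0684). mt-Co1 gave 0.94 ± 0.34 (edgeR adjusted p = 0.0688) and mt-Cytb 1.0 ± 0.37 (edgeR adjusted p = 0.0734). mt-Rnr1 stood at 450.1, 4217 and 906 CPM in sham and 1651, 2212 and 1917 CPM in injured libraries, a log2 of 0.05 ± 0.52, and mt-Rnr2 gave 0.23 ± 0.45. mt-Nd6 is the only protein gene annotated on the other strand, but ganglion reads were counted without strand, so its counts can hold reads of either strand. mt-Nd6 stood at 275, 2219 and 458 CPM against 574, 680 and 760 CPM, a log2 of -0.55 ± 0.50. For these 3 genes sham replicate 2 was above all injured libraries and sham replicates 1 and 3 below them.

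In this comparison edgeR called 0 of the 24 mitochondrial genes that passed the filter on low counts (12 protein, 2 ribosomal RNA and 10 transfer RNA genes), against 16.6% of all 18517 genes tested. At an unadjusted p under 0.05 there were 3, DESeq2 called 3, and limma-voom with quality weights called 17. Over all genes these counts were 5803, 4110 and 9258 of 18517. They are not given for the fits with libraries left out. The median log2 of the 12 protein genes was 0.57, against 0.00 for all genes. The result turned on the sham libraries: without replicate 2 edgeR called 16 higher, among them mt-Nd1 and mt-Rnr1, and without replicates 1 and 3 it called 5 lower, namely mt-Rnr1, mt-Rnr2, mt-Nd2, mt-Nd6 and mt-Te. Macrophage markers (7 genes) summed to 318 to 899 CPM in sham and 2322 to 2613 CPM in injured wild type, and myelinating Schwann cell markers (5 genes) to 9981 to 14839 and 20621 to 23492 CPM, and their part was not tested.

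Knockout ganglia after sham surgery had the highest mean levels of the abundant protein genes. mt-Cytb stood at 32906, 60262 and 52109 CPM in knockout sham, against 13599, 29977 and 16772 CPM in wild-type sham. These groups did not overlap, and the log2 fold change was 1.27 ± 0.37 (edgeR quasi-likelihood test, Benjamini-Hochberg adjusted p = 0.232). mt-Nd1 gave 1.04 ± 0.33 (edgeR adjusted p = 0.303) and mt-Co1 1.09 ± 0.34 (edgeR adjusted p = 0.268). The ribosomal RNAs gave 0.71 ± 0.52 for mt-Rnr1 and 0.30 ± 0.45 for mt-Rnr2, and mt-Nd6 gave 0.34 ± 0.50. mt-Tp, the proline transfer RNA whose sequence is given above, had the smallest p of the mitochondrial genes, with 7.10, 12.9 and 11.1 CPM in knockout sham against 2.35, 4.41 and 2.45 CPM in wild-type sham (log2 1.76 ± 0.36, edgeR adjusted p = 0.0765).

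edgeR called 0 of 24 mitochondrial genes between genotypes in sham ganglia, against 0.135% of all genes. At an unadjusted p under 0.05 there were 7, DESeq2 called 3 and limma-voom with quality weights 20, against 1606, 259 and 3009 of all 18517 genes. Such counts over all genes are not given for the fits with libraries left out. All 12 tested protein genes had a positive log2, with a median of 0.75, against -0.04 for all genes. Without wild-type sham replicate 2 edgeR called 16 higher, without wild-type sham replicates 1 and 3 it called 2 lower, mt-Nd6 and mt-Te, and without knockout sham replicate 1 it called 1 higher, mt-Tp. Markers of brown fat, a tissue rich in mitochondria, summed to 157, 245 and 260 CPM in knockout sham, above the 10.6 to 71.5 CPM of all other ganglion libraries (6 genes, all detected in knockout sham). In wild-type sham the 6 brown fat markers summed to 12.3, 71.5 and 18.4 CPM. The part of such tissue in the result was not tested.

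Between genotypes in injured ganglia, the abundant messages stood close together. mt-Cytb stood at 24696, 56820 and 48338 CPM in injured knockout and 36424, 42725 and 41354 CPM in injured wild type, with overlap. edgeR called 0 of 24 mitochondrial genes between injured knockout and injured wild type, against 2.2% of all genes. At an unadjusted p under 0.05 there were 3, against 2448 of all 18517 genes. DESeq2 called 0 and limma-voom 3, with the counts over all genes by both methods not given here. The median log2 of the protein genes was 0.13, against -0.01 for all genes. mt-Rnr1 stood apart from mt-Rnr2 here. Its levels were 3620, 3766 and 3620 CPM in injured knockout, above 1651, 2212 and 1917 CPM in injured wild type, a log2 of 0.93 ± 0.52 (edgeR adjusted p = 0.481). This call turned on the fit. mt-Rnr1 passed at a log2 of 0.92 with only the groups compared (edgeR adjusted p = 0.000158), at 0.94 without the filter on low counts, at 0.92 by limma-voom and at 1.60 with detected genes as a covariate. It did not pass by DESeq2, nor when any single library was left out of the edgeR fit.

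In knockout ganglia injury left all mitochondrial genes short of the threshold. edgeR called 0 of 24, against 10.9% of all genes. At an unadjusted p under 0.05 there were 0, against 4638 of all 18517 genes. DESeq2 called 0 and limma-voom 0. The log2 values of mt-Nd1, mt-Co1, mt-Cytb, mt-Rnr1, mt-Rnr2 and mt-Nd6 lay between -0.35 and 0.27. The levels of mt-Cytb given above for injured knockout lay within the range of knockout sham apart from the lowest library, replicate 1. The median log2 of the protein genes was -0.16, against -0.01 for all genes. The difference between both injury effects, fitted as an interaction, had log2 values of -1.08 ± 0.47 for mt-Nd1, -0.96 ± 0.47 for mt-Co1 and -1.16 ± 0.51 for mt-Cytb. For that interaction edgeR called 0 of 24, against 0.448% of all genes. At an unadjusted p under 0.05 there were 2, against 1812 of all 18517 genes. DESeq2 called 0 and limma-voom 13, and without wild-type sham replicate 2 edgeR called 9 lower. The counts over all genes in these fits are not given here, so these numbers have no background beside them. Without wild-type sham replicates 1 and 3, only replicate 2 remains in that group. The interaction log2 of mt-Nd1, mt-Co1 and mt-Cytb stayed negative there. Those of mt-Rnr1, mt-Nd6 and mt-Te were positive, as they were with all libraries. Wild-type sham enters the injury, genotype and interaction comparisons alike, so these values are not independent of each other.

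RU521 in injured wild type gave no call among mitochondrial genes. edgeR called 0 of 24, against 9.58% of all genes. At an unadjusted p under 0.05 there were 0, against 4680 of all 18517 genes. DESeq2 called 0 and limma-voom 2, with the counts over all genes by both methods not given here. mt-Co1 stood at 18095, 35985 and 23850 CPM with RU521 and 30213, 38677 and 34900 CPM without, a log2 of -0.41 ± 0.33, and the groups overlapped through replicate 2 of RU521. mt-Rnr1 had a log2 of 0.34 ± 0.52, and the median of the protein genes was -0.32, against -0.03 for all genes. Injured wild type also serves as the other arm of the injury comparison, so both comparisons share 3 libraries. The RU521 libraries had 28803, 32488 and 30938 detected genes at shares of 7.83%, 15.5% and 11.3%. With detected genes as a covariate the log2 of mt-Co1 was 0.012, and mt-Rnr1 (log2 1.21) and mt-Nd3 were called higher.

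**Figure D3:**
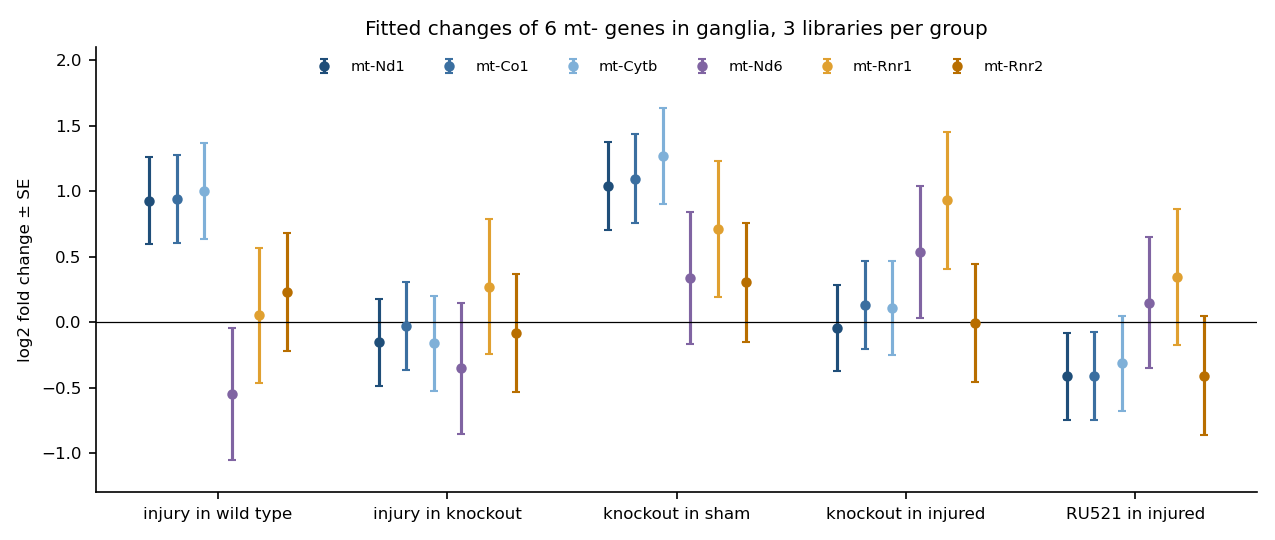
Fitted log2 fold change ± SE of 6 mitochondrial genes in 5 ganglion comparisons (edgeR, 3 libraries per group). mt-Nd1, mt-Co1 and mt-Cytb lie at 0.93 to 1.27 for injury in wild type and for knockout in sham, and none of the points passed the adjusted threshold.

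The balance of both ribosomal RNAs was higher in wild-type ganglia without RU521 than in the other ganglion libraries. This was noticed after the values were seen and is given as a description, with no test. Counts of mt-Rnr2 per count of mt-Rnr1 were 15.8, 10.1 and 11.5 in wild-type sham and 12.1, 12.1 and 12.2 in injured wild type. They were 9.21, 8.01 and 7.52 in knockout sham, 6.15, 5.98 and 6.93 in injured knockout, and 6.34, 7.30 and 7.86 with RU521. The 6 wild-type libraries without RU521 lay at 10.1 to 15.8 (median 12.1), above all 9 others at 5.98 to 9.21. The RU521 group is wild type, so the lower ratio was not limited to the knockout. The higher mt-Rnr1 level in injured knockout against injured wild type, given above, is the same measurement seen per gene. In wild-type sham replicates 1, 2 and 3 these ratios stood beside mitochondrial shares of 4.87%, 15.2% and 6.52%. In knockout sham they stood beside 12.8%, 18.3% and 18.6%, and in both sham groups the lowest share went with the highest ratio. This was not so in the other ganglion groups. With RU521 the lowest share, 7.83%, went with the lowest ratio, 6.34. The highest ratio stood at a share of 14.9% in injured wild type (12.2) and of 16.6% in injured knockout (6.93). The part of the share, and of capture by the poly(A) tail, in the ratio was not tested. Neither gene shares a 100-base window with a nuclear transcript. Collection order and library batch are not stated and cannot be told apart from the groups. In retinal libraries the ratio lay between 22.1 and 99.3 on mt-Rnr1 levels of 123 to 581 CPM.

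**Figure D4:**
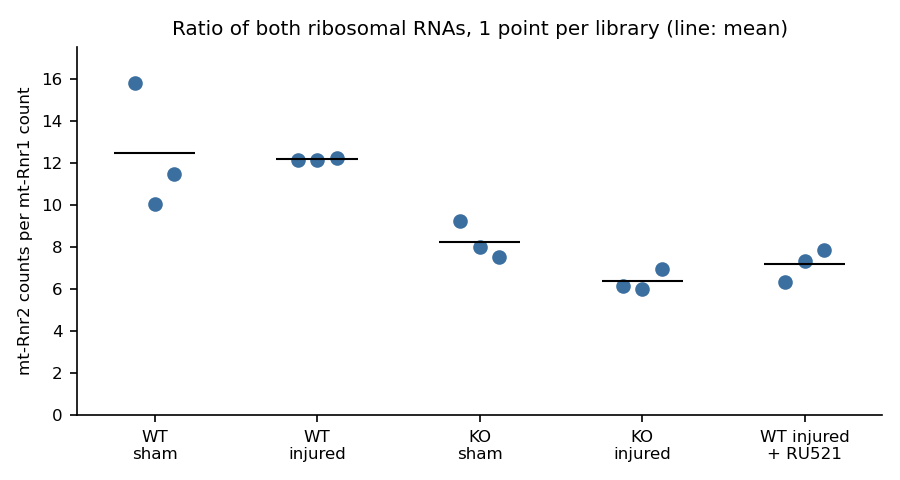
Counts of mt-Rnr2 per count of mt-Rnr1 in the 15 ganglion libraries, 1 point per library and a line at each group mean. The 6 wild-type libraries without RU521 lie at 10.1 to 15.8 and the other 9 at 5.98 to 9.21.

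Both ribosomal RNAs together took a share of mitochondrial counts that did not differ by test. The means were 21.3% in wild-type sham, 17.4% in injured wild type, 16.7% in knockout sham, 18.2% in injured knockout and 18.1% with RU521. In retinal cells the means were 41.2% in wild type with PBS, 44.7% with IFNγ, 45.9% in knockout with PBS and 49.7% in knockout with IFNγ. Over both treatments the knockout was higher by 4.79 percentage points (exact p = 0.235) and over both genotypes IFNγ was higher by 3.64 points (exact p = 0.34). All 13 adjusted p-values were 0.867 or more.

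Retinal ganglion cells showed no call for any mitochondrial gene with IFNγ or with loss of Ptpn2. edgeR called 0 of 24 (13 protein, 2 ribosomal RNA and 9 transfer RNA genes) in each of 5 comparisons, against 0% of all 13487 genes tested in 4 of them and 0.0222% for knockout with PBS, and DESeq2 and limma-voom called 0 as well. At an unadjusted p under 0.05 there were 2 for IFNγ in wild type and 4 for knockout with PBS, against 542 and 1281 of all 13487 genes. There were 0 for IFNγ in knockout, knockout with IFNγ and the interaction, against 879, 668 and 721 of all genes. The libraries spread widely, with a biological coefficient of variation of 1.27, against 0.262 in ganglia, and a simulation of the IFNγ comparison recovered 0% of genes changed by a log2 of 2. Changes of that size were therefore not detectable by this test for most genes. For IFNγ in wild type, SEs of the log2 of mitochondrial genes ran from 0.27 for mt-Cytb to 2.71 for mt-Tt. They were 0.36 for mt-Nd1 and 0.37 for mt-Co1. Recovery of such changes in the mitochondrial genes themselves was not tested.

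Wild type with PBS had the highest single levels of several retinal messages. mt-Nd1 stood at 6201, 5377 and 2616 CPM there, at 3579, 4629 and 2478 CPM with IFNγ, at 2664, 2595 and 2537 CPM in knockout with PBS and at 3758, 2034 and 2405 CPM in knockout with IFNγ. Replicates 1 and 2 of wild type with PBS were the 2 highest of all 12 libraries, and replicate 3 lay among the others. For knockout against wild type with PBS the log2 was -0.86 ± 0.36 for mt-Nd1, -0.64 ± 0.37 for mt-Co1 and -0.61 ± 0.27 for mt-Cytb, and none passed (edgeR, smallest adjusted p of the 24 genes 0.517). mt-Nd6 stood at 185, 211 and 178 CPM in wild type with PBS and at 98.6, 112 and 128 CPM with IFNγ, groups that did not overlap (log2 -0.76 ± 0.34). mt-Rnr1 stood at 490, 581 and 317 CPM against 258, 286 and 277 CPM, also without overlap (log2 -0.76 ± 0.44). In the knockout the same 2 genes overlapped between treatments, and the interaction called none. The median log2 of the 13 protein genes was -0.58 for IFNγ in wild type and -0.64 for knockout with PBS, comparisons that share wild type with PBS, against -0.02 and 0.00 for all genes. It was 0.07 for IFNγ in knockout and -0.07 for knockout with IFNγ. Rod markers stood at 528 CPM in replicate 3 of wild type with PBS, against 2.57 to 100 CPM in the other 11 retinal libraries, and macrophage markers at 2381 CPM in replicate 2 of knockout with PBS, against 4.52 to 196 CPM. Their part was not tested.

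Nuclear genes of the same machines fell with injury in wild type, where the mitochondrial protein genes had a positive median and no call. In a list of nuclear-encoded subunits and close partners of complexes I to IV and ATP synthase, 77 genes were tested in each experiment. With injury in wild type 37 of the 77 fell and 0 rose, against 7.98% of all genes called lower, with a median log2 of -0.39, against 0.00 for all genes. They were 22 of 36 genes of complex I, 3 of 9 of complex III, 5 of 11 of complex IV, 7 of 17 of ATP synthase and 0 of 4 of complex II. Examples were Ndufb3 (-0.67 ± 0.12) and Ndufv1 (-0.58 ± 0.11) of complex I, the Rieske iron-sulfur protein Uqcrfs1 of complex III (-0.65 ± 0.13), Cox5b of complex IV (-0.54 ± 0.11) and Atp5g3, a membrane ring subunit of ATP synthase (-0.69 ± 0.15), of which Atp5g3 had the highest edgeR adjusted p, 0.00745 (chosen by their small p after the values were seen). The count was 13 to 49 when single libraries were left out, lowest without injured replicate 2, 17 without injured replicate 3 and 21 without sham replicate 3, and it was 34 without sham replicates 1 and 3. It was 11 with only the groups compared, 18 without the filter on low counts and 56 by limma-voom. In this comparison limma-voom also called more of all genes than edgeR, as given above.

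With RU521, 24 of the 77 nuclear genes rose and 0 fell, against 5.1% of all genes called higher, with a median log2 of 0.36. They were 13 of complex I, 5 of complex IV and 6 of ATP synthase. Ndufv1 (0.57 ± 0.11), Cox5b (0.48 ± 0.11) and Atp5g3 (0.70 ± 0.15) were among them. Both comparisons share the injured wild-type libraries. This count rested on single libraries: it was 1 without injured replicate 2, 3 without RU521 replicate 1, 4 without injured replicate 3, 6 without RU521 replicate 3, 13 without injured replicate 1 and 38 without RU521 replicate 2. It was 7 without the filter, 47 by DESeq2 and 65 by limma-voom. Counts over all genes under these settings are not given here. Sensory neuron markers (6 genes) moved alongside, at 4258 to 6945 CPM in wild-type sham, 3314 to 3949 CPM in injured wild type and 4621 to 7024 CPM with RU521. Myelinating Schwann cell markers stood at 20621 to 23492 CPM in injured wild type and 7824 to 9561 CPM with RU521. In knockout ganglia the neuron markers stood at 4067 to 5605 CPM after sham surgery and 3457 to 3825 CPM after injury. The part of these cells was not tested.

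In the other ganglion comparisons few nuclear subunits passed. With injury in knockout 1 of 77 fell, Ndufv1 (-0.44 ± 0.11, edgeR adjusted p = 0.0181), against 4.57% of all genes called lower. Injured knockout against injured wild type had 1 higher, Ndufa3 of complex I (0.57 ± 0.14, edgeR adjusted p = 0.0424), against 1.39% called higher, with a median of 0.24 over the list. Leaving out single libraries ended the call of Ndufv1 in 4 of 6 cases and that of Ndufa3 in 5 of 6. Knockout in sham had 0 of 77, with a median of -0.04, where the mitochondrial protein genes had 0.75. In retinal cells 0 of 77 passed in any comparison (edgeR).

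**Figure D5:**
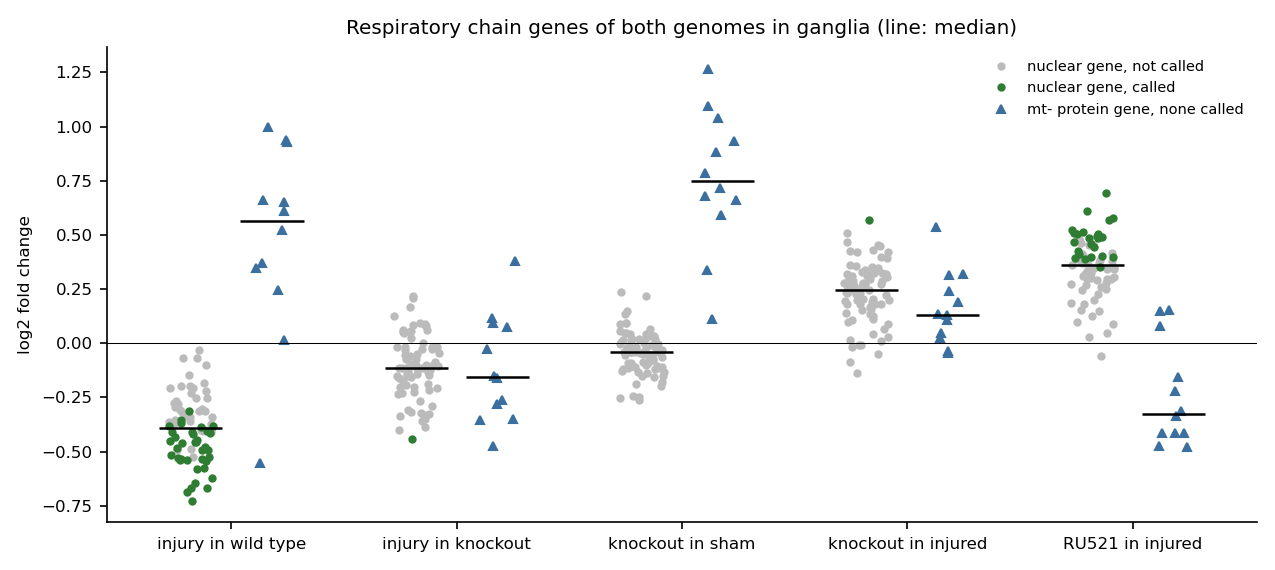
Log2 fold change of each nuclear respiratory chain gene (circles, green where called by edgeR) and of each tested mitochondrial protein gene (blue triangles) in 5 ganglion comparisons, with lines at the medians. For injury in wild type the medians are -0.39 and 0.57, and for RU521 they are 0.36 and -0.32.

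Genes that copy, transcribe and process mitochondrial DNA and RNA passed rarely. Of 28 tested in ganglia, 1 fell with injury in wild type and the same gene, Grsf1, a binding protein of mitochondrial RNA granules, with injury in knockout (log2 -0.48 ± 0.15 and -0.58 ± 0.16, edgeR), against 7.98% and 4.57% of all genes called lower. Polg, the catalytic subunit of the mitochondrial DNA polymerase, was the only one called in injured knockout against injured wild type (-0.71 ± 0.17) and with RU521 (-0.71 ± 0.17), both against injured wild type, which these comparisons share. Over all genes 2.2% and 9.58% were called in these comparisons, in either direction. Leaving out single libraries ended these calls in 4 of 6 cases each for Grsf1 and for Polg with RU521, and in 6 of 6 for Polg in injured knockout. With injury in wild type Grsf1 also did not pass without the filter on low counts, with detected genes as a covariate (log2 -0.27) or with only the groups compared. Its log2 was -0.21 without sham replicates 1 and 3. Polg did not pass without the filter in either comparison, nor with a replicate block in injured knockout. In knockout against wild-type sham, 0 of 28 passed, and in retinal cells 0 of 25 (edgeR).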

How the data were processed

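Gene counts of 15 ganglion and 12 retinal libraries were used as deposited. Per the file headers, the authors counted ganglion read pairs over exons by gene name with featureCounts 2.0.1, without strand, on Ensembl release 101 with a mapping quality of at least 10. STAR, Trim Galore and GRCm38 are named in the submitters' processing notes. The counter of the retinal table is not stated there, and its unnamed last line, the sum of each column in 12 of 12 libraries (50.0% of the file total), was left out. Both experiments were fitted apart, over all their groups, with the edgeR 4.0.16 quasi-likelihood test after filterByExpr and TMM scaling (R 4.3.3), and a gene was called when its p, adjusted by Benjamini-Hochberg over the genes tested, was under 0.05. Shares were compared by two-sided exact permutation tests. Alternatives used DESeq2 1.42.0 and limma 3.58.1. Replicate numbers did not pair libraries, since same-number correlations of deviations lay between -0.12 and 0.21. On simulated ganglion counts (injury in wild type, 18517 genes) the fit recovered 44% of changes of 1 and 87% of changes of 2 on the log2 scale.

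The members and lists were chosen with earlier results of these data known. Named throughout were mt-Nd1, mt-Co1, mt-Cytb, mt-Rnr1, mt-Rnr2 and mt-Nd6, any other mitochondrial gene called, and the 3 transfer RNAs with the highest mean CPM in each experiment. Alternatives for nuclear genes were added after seeing the data. Floors cover counting error only.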

Additional observations from a re-analysis of the deposited data

How the results depend on the processing

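Mitochondrial genes called numbered 5 for injury in wild type, 1 for injury in knockout, 10 for knockout in sham, 1 for knockout in injured and 5 for the interaction without the filter on low counts. DESeq2 called 3 for injury in wild type and 3 for knockout in sham. limma-voom with quality weights called 17, 20, 3, 2 and 13 for injury in wild type, knockout in sham, knockout in injured, RU521 and the interaction. With detected genes as covariate the counts were 1, 2, 5 and 2 for the first 4 of these, and with only the groups compared 1 for knockout in injured. Without wild-type sham replicates 1 and 3 5 were called lower for injury in wild type, 2 lower for knockout in sham and 3 higher for the interaction. Leaving out single libraries gave 0 to 16, 0 to 16 and 0 to 9. With a replicate block the counts were 4 for injury in wild type and 4 for knockout in sham, although the replicate numbers did not pair the libraries. Counts over all genes are not set beside these, except where given above, and the cause of these shifts was not tested.

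The share of counts changed sign without wild-type sham replicates 1 and 3, to -0.634 points for injury in wild type and -1.07 over both genotypes. With protein genes only it was -0.0853 for IFNγ in knockout, -0.0628 for knockout with IFNγ and -0.164 for knockout over both treatments, the last -0.132 without the transcript CT010467.1 in the total. Leaving out single libraries gave -3.38 to 0.298 for injury in knockout, -0.568 to 2.26 for knockout in injured, 3.07 to 5.66 for knockout over sham and injured (lowest exact p = 0.045, without injured knockout replicate 1, at 4.98), -0.714 to 0.0166 for IFNγ in wild type, -0.283 to 0.368 for IFNγ in knockout, -0.616 to 0.115 for knockout with PBS, -0.185 to 0.466 for knockout with IFNγ, -0.310 to 0.0548 for IFNγ over both genotypes and -0.212 to 0.153 for knockout over both treatments.

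The ribosomal RNA share with mt-Rnr2 alone was -0.339 for knockout in injured and -0.211 for RU521. Leaving out single libraries gave -6.57 to 0.461 (injury in wild type), -0.830 to 3.28 (injury in knockout), -1.58 to 2.54 (knockout in injured), -0.339 to 2.33 (RU521), -2.5 to 1.02 (injury over both genotypes), -3.24 to 0.272 (knockout over sham and injured) and -0.0610 to 8.20 (IFNγ in wild type).

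For single genes, injury in wild type gave log2 values of -0.71 for mt-Rnr1 and -0.52 for mt-Rnr2 with the covariate, -1.08 and -0.81 without wild-type sham replicates 1 and 3, and 0.67 for mt-Nd6 by limma-voom. Knockout in sham gave -0.44 for mt-Rnr1, -0.75 for mt-Rnr2 and -0.81 for mt-Nd6 without those replicates, and RU521 gave 0.012 for mt-Co1 with the covariate. Leaving out single libraries gave -0.42 to 1.49 (mt-Rnr1), -0.18 to 1.41 (mt-Rnr2) and -1.0 to 0.86 (mt-Nd6) for injury in wild type, and -0.086 to 1.5 (mt-Rnr2) and -0.093 to 1.77 (mt-Nd6) for knockout in sham. Nuclear respiratory chain genes called were 18 for injury in wild type and 7 for RU521 without the filter, 56 and 65 by limma-voom, 47 for RU521 by DESeq2, 11 for injury in wild type with only the groups compared, and 13 to 49 and 1 to 38 when single libraries were left out. In the retinal cells mitochondrial calls were 0 under every alternative run.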
